A study of Homo sapiens with 12 samples.

Results

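The nuclear genome encodes most subunits of the respiratory complexes I to V, and their transcripts were followed here in cells with and without mitochondrial DNA (mtDNA). Members were all probe sets of the array whose single listed gene symbol is that of a complex I subunit (NDUFA, NDUFB, NDUFC, NDUFS or NDUFV, assembly factors apart), of succinate dehydrogenase (SDHA to SDHD), of complex III (CYC1 and the UQCR genes), of cytochrome c oxidase (COX4I to COX8) or of ATP synthase (ATP5), with pseudogenes left out. This rule uses names alone and no measured value. It gave 100 of the 22283 probe sets, for 67 of the 11963 genes with a single listing: 28 genes of complex I, 3 of complex II, 7 of complex III, 13 of complex IV and 16 of complex V. Probe sets listed with several genes were no members, which leaves out NDUFS5, NDUFS8, NDUFC2, UQCRH and ATP5MF. NDUFA4, NDUFA11, NDUFA12, NDUFB9, NDUFB10, NDUFV3, SDHB, UQCRFS1, COX4I2 and COX6B2 had no probe set of their own name in the annotation used and were not analysed here.

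Total RNA was hybridised to 12 HG-U133A arrays, with 3 arrays, called A, B and C, for each of 4 groups. The A549 cells come from a lung adenocarcinoma and the 143BTK- cells from an osteosarcoma without thymidine kinase, and each line was used as ρ+ cells, which keep their mtDNA, and as ρ0 cells, which lost it in 50 ng/ml ethidium bromide over 3 weeks. The ρ0 cells of a line were pooled without picking a clone, the drug was absent during the last week before mtDNA was checked, and all groups, controls included, grew in high glucose with 10% serum, 1 mM pyruvate and 50 µg/ml uridine. The cells were frozen, revived and grown for around 10 passages before RNA was taken. The arrays of a group are termed biological replicates and are described as 3 independent RNA extractions. The labels do not say whether mtDNA was removed once or several times in a line. P-values therefore measure the spread between these arrays, not between separate losses of mtDNA. Values are signals on a linear scale that the authors normalized within each line, so levels are compared only between ρ0 and ρ+ cells of the same line and never between genes. Changes are log2 signals of ρ0 minus ρ+ cells, and a change is called where limma's two-sided test gives an adjusted p under 0.05 over all probe sets kept in the line.

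Complexes I to IV carry electrons from NADH and succinate through ubiquinone and cytochrome c to oxygen, complexes I, III and IV pump protons, and complex V (ATP synthase) lets protons flow back to make ATP. Each complex apart from complex II is built of subunits from both genomes: mtDNA encodes the membrane-bound pumping subunits of complex I, cytochrome b, the catalytic subunits of complex IV and subunits a and A6L of the proton channel. Nuclear subunits fall into a catalytic core and accessory subunits needed for assembly, stability or regulation. The core was taken here as NDUFS1, NDUFS3, NDUFS7, NDUFV1, NDUFV2, SDHA, CYC1, ATP5F1A and ATP5F1B. All but NDUFS3 hold a redox centre or a nucleotide site, and the haem-binding anchors SDHC and SDHD were counted as accessory. Cells without mtDNA cannot complete complexes I, III, IV and V, while complex II and the F1 head of ATP synthase are known to form from nuclear subunits alone.

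Most subunits were well measured. Of the 100 probe sets, 92 were kept in A549 and 94 in 143BTK- by a filter on the upper 60% of mean log2 signals, and these stood for 66 of the 67 genes in either line. The gene that fell out was COX7A1, the muscle isoform of subunit 7A, with signals of 0.9 to 14.1 on all arrays. The median signal of the members lay between 642 and 803 on the A549 arrays and between 644 and 819 on the 143BTK- arrays, against an array median near 31.4 and 27.6 over all probe sets. Pairs of arrays of a group had a median absolute log2 difference of 0.15 to 0.31 over the members. In 143BTK- the deviations of arrays from their own groups went together across the ρ0 and ρ+ groups: over all kept probe sets r was 0.409 for ρ0 B with ρ+ C and 0.391 for ρ0 A with ρ+ A. An alternative left out the 143BTK- ρ+ C and ρ0 B arrays, and the calls that it ended are given beside the results. Over the members alone ρ0 B did not stand apart, since the ρ0 A and B arrays had a median absolute log2 difference of 0.193, and those of A with C and of B with C were 0.293 and 0.29. The line markers were in part absent, and markers of the other type were in part present. In A549, KRT8, KRT18, KRT19 and CDH1 were kept while EPCAM was not, and the mean signals in ρ+ and ρ0 cells were 3210 and 1450 for KRT8, 8230 and 3350 for KRT18, 272 and 124 for CDH1 and 409 and 3.53 for KRT19. The part of this difference in the A549 results was not tested. The mesenchymal genes VIM (3300 and 4460), COL1A1, COL1A2 and CDH2 were kept in A549 too. In 143BTK-, VIM, SPARC, COL1A1 and CDH2 were kept while the bone genes RUNX2, ALPL and COL1A2 were not. The epithelial KRT18 (4570 in ρ+ and 3520 in ρ0 cells), KRT8 and EPCAM were kept there too.

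Over all subunits, the levels in ρ0 cells were spread around those of ρ+ cells in both lines. With each gene represented by its brightest probe set, 32 of 66 genes had a higher and 34 a lower mean log2 signal in A549 ρ0 cells, with a median change of -0.02, and all probe sets kept had a median of 0. In 143BTK-, 41 genes had a positive and 25 a negative change, with a median of 0.13 against 0. The changes in A549 ran from -1.39 for NDUFA8 to 0.87 for ATP5MC2, and in 143BTK- from -0.93 for NDUFC1 to 0.90 for NDUFB7. The medians of complexes I, II, III, IV and V were 0.10, -0.06, -0.03, -0.10 and -0.02 in A549 and 0.09, 0.12, -0.03, 0.24 and 0.11 in 143BTK-. Complex IV had a positive change in 11 of 12 genes in 143BTK- (COX7B was at -0.08) and in 5 of 12 in A549, and its median stayed between 0.20 and 0.35 when any 1 of the 143BTK- arrays was left out. With the median of the chromosome taken off, 143BTK- changes of complex IV genes were mostly smaller. COX6B1 went from 0.38 to 0.17, COX5A from 0.28 to 0.10 and COX7A2 from 0.05 to -0.01, while COX6C went from 0.42 to 0.43.

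**Figure D1:**
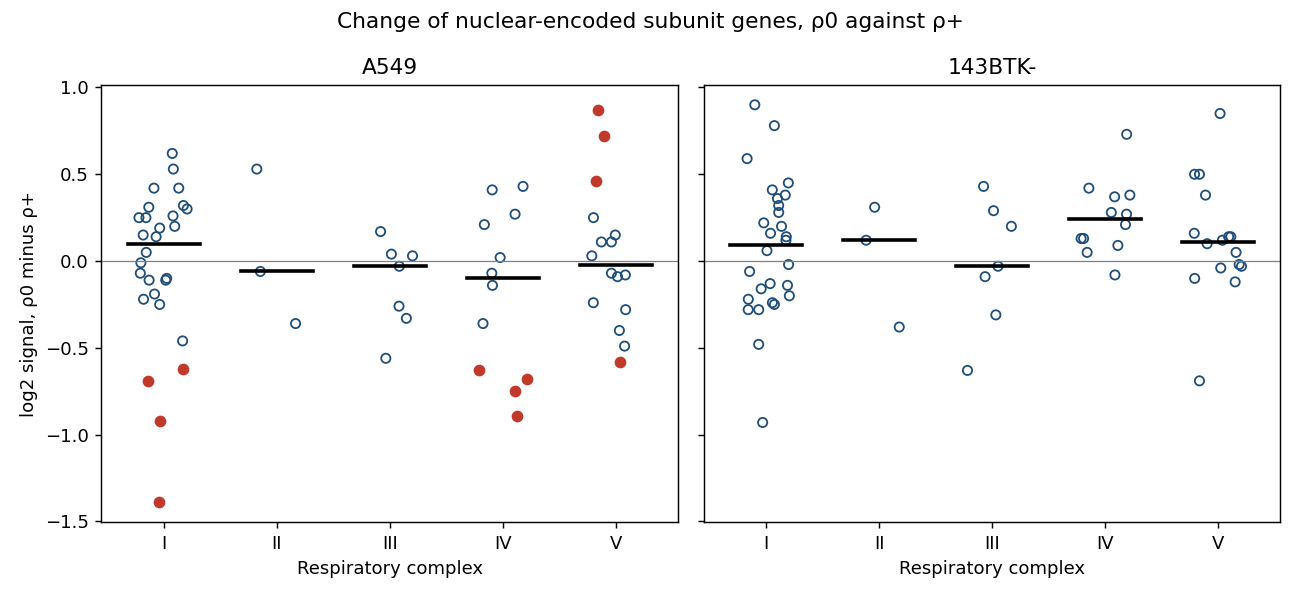
Change of each subunit gene by complex, as log2 signal of ρ0 minus ρ+ cells on the vertical axis, in A549 (left) and 143BTK- (right); each point is the brightest probe set of 1 gene, filled red where limma's adjusted p was under 0.05, and bars are the medians over genes. The medians lie between -0.10 and 0.24, and the 12 filled points, 9 below and 3 above 0, are all from complexes I, IV and V in A549.

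In A549, 10 of the 92 kept probe sets of subunits were lower in ρ0 cells (10.9%) where 5.07% of all probe sets were called lower, and 5 were higher (5.43%) where 5.53% of all were called higher. The 14 genes concerned belong to complex I (4 genes), complex IV (5) and complex V (5), and the other 77 probe sets did not pass. In a pooled population, less RNA in every cell and fewer cells with the transcript cannot be told apart. In 143BTK- 0 of 94 passed limma's adjusted threshold in either direction, as did 0 of all 13369 probe sets; at an unadjusted p under 0.05, 7 members were higher and 3 lower, against 3.87% and 4.67% of all probe sets. Counting arrays instead, all 3 ρ0 arrays of A549 lay below all 3 ρ+ arrays for 21 members (15.9% of all probe sets) and above them for 13 (15.7% of all). In 143BTK- the ρ0 arrays lay above for 13 of 94 members (7.46% of all) and below for 5 (7.53% of all). The A549 calls depended on single arrays: without the ρ0 A array 2 of the 15 passed, NDUFA8 and COX6B1, and the other 13 had adjusted p values of 0.0531 to 0.17. Of the same 15 calls, 5 passed without the ρ+ B array and 5 without the ρ0 B array.

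The accessory subunits of complex I held the largest decrease. NDUFA8, a subunit with paired CHCH motifs on the intermembrane side of the membrane arm, gave signals of 411, 545 and 564 on the A549 ρ+ arrays and of 219, 167 and 192 on the ρ0 arrays. All ρ0 arrays were below all ρ+ arrays, a 2.62-fold decrease in A549 (log2 change -1.39 ± 0.20, SE, n = 3 arrays a group, limma adjusted p = 0.00334). In 143BTK- the same probe set read 168, 255 and 156 in ρ+ and 183, 157 and 167 in ρ0 cells, so the groups overlapped (-0.16 ± 0.26, limma adjusted p = 0.897). The mean change of both lines was -0.77 ± 0.16 (limma adjusted p = 0.0211, exact permutation p = 0.04 on the same arrays). The change in A549 minus that in 143BTK-, -1.23, missed the threshold (limma adjusted p = 0.0684).

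NDUFAB1 is the mitochondrial acyl carrier protein, which holds growing fatty acids and binds the LYR-motif subunits of complex I. Its signals in A549 were 1431, 1134 and 1273 in ρ+ and 589, 776 and 665 in ρ0 cells, a 1.89-fold decrease without overlap (-0.92 ± 0.17, limma adjusted p = 0.00927). In 143BTK- they were 1349, 1309 and 1209 in ρ+ and 1234, 1177 and 1096 in ρ0 cells, a smaller shift with overlap (-0.14 ± 0.16, limma adjusted p = 0.834). Over both lines NDUFAB1 was lower by 0.53 ± 0.11 (log2 change -0.53, limma adjusted p = 0.0201). The other called members of complex I were NDUFA6, an LYR-motif subunit of the matrix arm (202001_s_at, 571 ± 58.5 to 354 ± 23.2, mean ± SD; log2 change -0.69, limma adjusted p = 0.0306), and NDUFS6, a zinc-binding subunit of the matrix arm (-0.62, 0.0409). The dimmer NDUFA6 probe set, 202000_at, changed by -0.40 (limma adjusted p = 0.28). NDUFB4, a membrane arm subunit, had the highest change of complex I in A549, 0.62, and did not pass (limma adjusted p = 0.062).

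Complex IV is completed by nuclear subunits that wrap the catalytic subunits encoded by mtDNA. Its member with the lowest adjusted p was COX6B1, the common isoform of the subunit on the intermembrane side, with 3376, 3637 and 3753 in ρ+ and 1823, 2111 and 1890 in ρ0 cells of A549. That is a 1.85-fold decrease, and no array overlapped (-0.89 ± 0.13, limma adjusted p = 0.00331). In 143BTK- COX6B1 read 636, 881 and 803 in ρ+ and 1177, 1302 and 645 in ρ0 cells, with overlap and the opposite sign (0.38 ± 0.28, limma adjusted p = 0.751). The difference of the changes was -1.27 (95% interval -1.94 to -0.59) and missed the threshold (limma adjusted p = 0.0546).

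COX4I1 and COX5A, subunits that join the mtDNA-encoded COX1 early in assembly, were lower in A549 as well. COX5A fell from 1832, 1749 and 2037 to 1096, 1109 and 1136 (-0.75 ± 0.14, limma adjusted p = 0.00944). For COX4I1 the brightest probe set, 202698_x_at, fell from 2777, 2846 and 3224 to 1890, 1851 and 1981 (-0.63 ± 0.13, limma adjusted p = 0.0152), and 200086_s_at had a change of -0.52 that did not pass (limma adjusted p = 0.0614). COX5B, the zinc-binding subunit, passed with 213735_s_at (-0.68, limma adjusted p = 0.0404) and had changes of -0.52, -0.39 and -0.95 with its other 3 probe sets, which did not pass (limma adjusted p = 0.0914, 0.367 and 0.131). Against this, COX7C rose with 217491_x_at, from 1610, 1109 and 1495 to 2215, 2123 and 1952 (0.59 ± 0.17, limma adjusted p = 0.0484), while its brighter 201134_x_at did not pass (0.41, limma adjusted p = 0.0606).

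Several subunits of complex IV have isoforms for different tissues. COX6A1, the common isoform of subunit 6A, had a change of 0.27 in both lines, and the muscle isoform COX6A2 read 32.5 to 49.0 in A549 and 22.8 to 32.6 in 143BTK-, with changes of -0.07 and 0.37, and none passed. COX7A2, the common isoform of subunit 7A, had changes of 0.02 (95% interval -0.34 to 0.37) in A549 and 0.05 (-0.43 to 0.53) in 143BTK-. Its relative COX7A2L, which links complexes III and IV into supercomplexes, read 854, 807 and 944 in ρ+ and 1223, 1408 and 925 in ρ0 cells of A549, and 706, 925 and 1156 in ρ+ and 1271, 1822 and 1482 in ρ0 cells of 143BTK-. The ρ0 C array of A549 was within the ρ+ range, and in 143BTK- the groups did not overlap. The mean change of COX7A2L passed (0.58 ± 0.15, limma adjusted p = 0.0482), and it did not pass in either line on its own (limma adjusted p = 0.162 and 0.498). Its exact two-sided permutation p over both lines was 0.01, where 0.005 is the smallest possible. That p comes from the same arrays as the call and is no separate support. NDUFS4 and NDUFB6, which were not called in the mean change, had the same permutation p. COX8A had changes of 0.21 and 0.09.

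**Figure D2:**
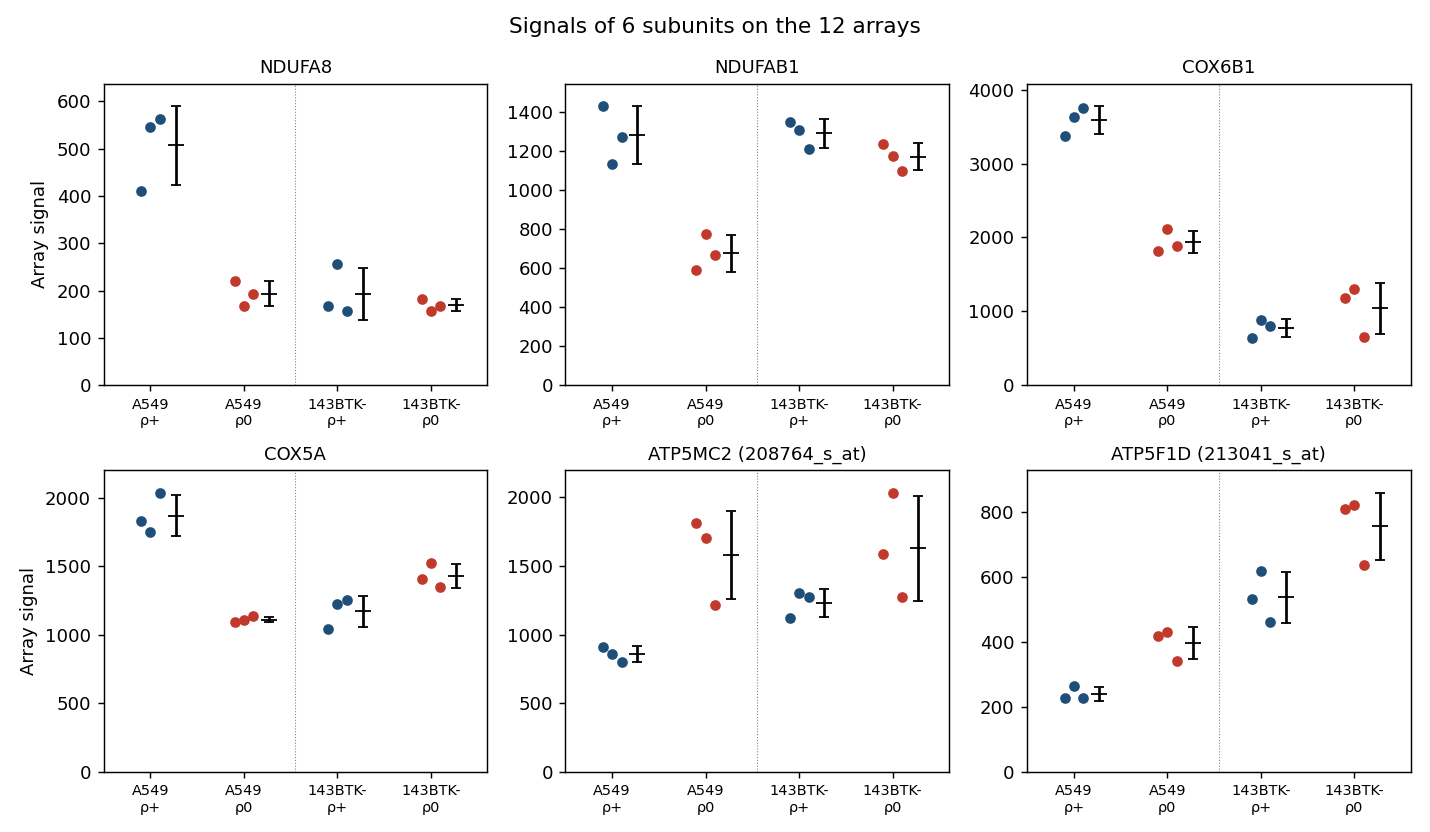
Array signals (linear scale from 0) of 6 subunits in the 4 groups: points are single arrays, A, B and C from left to right, blue for ρ+ and red for ρ0 cells, and black marks are the mean and SD. NDUFA8, NDUFAB1, COX6B1 and COX5A are lower in all A549 ρ0 arrays, ATP5MC2 and ATP5F1D are higher in all of them, and in 143BTK- the ρ0 arrays of COX5A and ATP5F1D lie above all ρ+ arrays.

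ATP synthase, like complex IV, had called members in both directions in A549. Its c subunit forms the rotating ring of the membrane part and is made from 3 nuclear genes whose mature proteins are identical and whose import signals differ. In A549, ATP5MC2 rose from 913, 855 and 797 to 1812, 1706 and 1217 (0.87 ± 0.18, 1.82-fold, limma adjusted p = 0.0153). ATP5MC3 fell with 207508_at from 1838, 2075 and 2314 to 1348, 1243 and 1569 (-0.58 ± 0.15, limma adjusted p = 0.0384), and its other probe set 207507_s_at was at -0.46 (limma adjusted p = 0.0643). ATP5MC1 had a change of -0.40 and did not pass (limma adjusted p = 0.19). For each of these 4 probe sets the A549 groups did not overlap. Of all probe sets 15.7% were higher and 15.9% lower without overlap in A549. The called changes of ATP5MC2 and of ATP5MC3 with 207508_at had opposite directions, and the lower signals of the other 2 probe sets did not pass.

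In 143BTK- the c subunit genes had overlapping groups: ATP5MC2 had a change of 0.38 ± 0.20, with 1121, 1306 and 1276 in ρ+ and 1590, 2034 and 1272 in ρ0 cells, ATP5MC3 was at 0.19 and 0.05, and ATP5MC1 at -0.10. The mean change of ATP5MC2 passed (0.62 ± 0.14, limma adjusted p = 0.0255), and its difference between the lines did not (0.49, limma adjusted p = 0.39). Its exact permutation p of 0.015 comes from the same arrays and is no separate support.

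**Figure D3:**
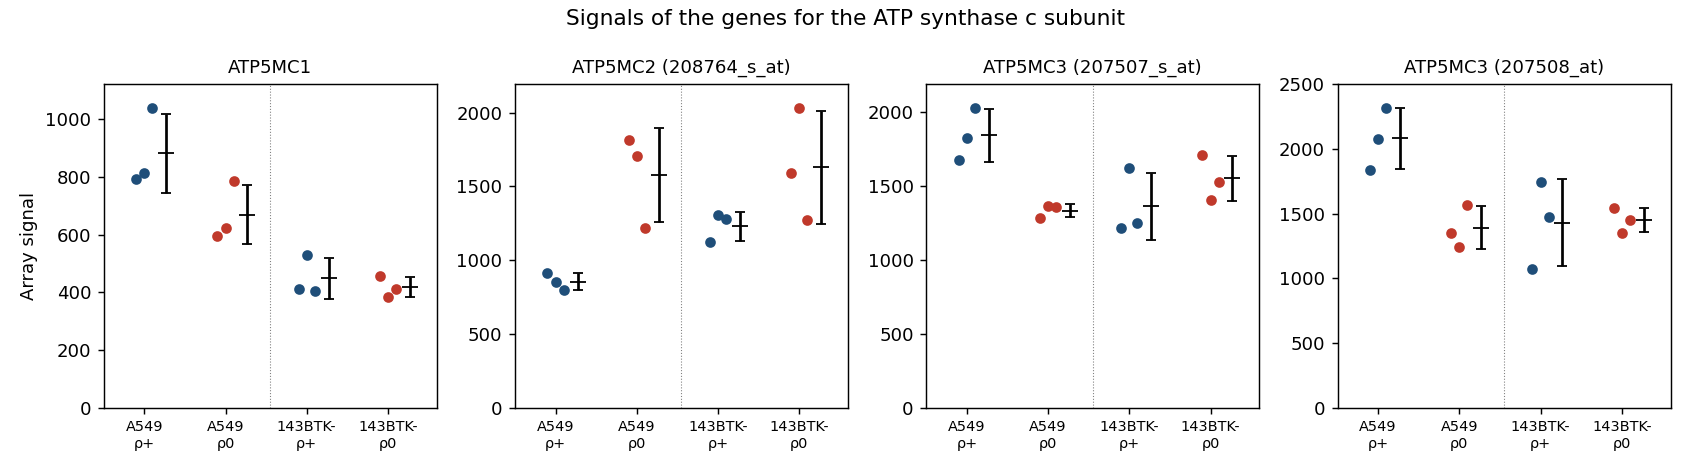
Array signals (linear scale from 0) of the probe sets for the 3 genes of the ATP synthase c subunit, with points for arrays A, B and C, blue for ρ+ and red for ρ0 cells, and black marks for the mean and SD. In A549 the ρ0 arrays lie above the ρ+ arrays for ATP5MC2 and below them for ATP5MC1 and for both probe sets of ATP5MC3; in 143BTK- all 4 overlap.

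The central stalk, peripheral stalk and membrane part were mixed. ATP5F1D, the delta subunit of the central stalk, was higher in A549 (228, 264 and 227 to 418, 429 and 341) and in 143BTK- (531, 617 and 461 to 810, 822 and 637) with 213041_s_at, without overlap in either line. Of all probe sets 1.46% were higher without overlap in both lines, and 2 of 92 members were (2.17%), this one and ATP5MG with 208745_at. The mean change of ATP5F1D was 0.61 ± 0.14 (limma adjusted p = 0.0265), and it did not pass without the 143BTK- ρ+ C and ρ0 B arrays (limma adjusted p = 0.0593). Its exact permutation p of 0.005, the smallest possible, follows from the lack of overlap in both lines and adds nothing to it. ATP5MG is subunit g of the membrane part, which has a role in dimers of the enzyme. Its 208745_at read 100, 130 and 102 in ρ+ and 157, 195 and 170 in ρ0 cells of A549, and 301, 274 and 300 in ρ+ and 460, 358 and 389 in ρ0 cells of 143BTK- (mean change 0.56 ± 0.14, limma adjusted p = 0.0461). On its own in A549, 208745_at did not pass (0.66, limma adjusted p = 0.0795). Of the 3 brighter probe sets of ATP5MG, 2 passed in A549, with 0.75 for 207573_x_at (limma adjusted p = 0.0189) and 0.46 for 210453_x_at (limma adjusted p = 0.0496), while 208746_x_at did not (0.50, limma adjusted p = 0.0672). These 3 probe sets were at -0.04, -0.07 and -0.04 in 143BTK-.

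ATP5PO (OSCP), which ties the peripheral stalk to the F1 head, shows how far probe sets of a gene can differ. The dim 216954_x_at fell in A549 from 131, 143 and 105 to 44.8, 57.4 and 57.2 (-1.25 ± 0.24, limma adjusted p = 0.0114), and the brighter 200818_at read 872, 1004 and 1022 in ρ+ and 987, 869 and 861 in ρ0 cells (-0.09, limma adjusted p = 0.747). Without probe sets whose names end in _x_at, 10 of the 15 A549 calls remained to be tested, and all 10 passed. Over the 16 genes with several kept probe sets, the signs agreed for 13 genes in A549 and for 7 genes in 143BTK-. ATP5PB, subunit b of the peripheral stalk, had the lowest change of complex V in 143BTK-, with 4714, 3836 and 3935 in ρ+ and 2480, 1970 and 3478 in ρ0 cells (-0.69 ± 0.20, unadjusted p = 0.00814, limma adjusted p = 0.477), and a change of -0.08 in A549. ATP5ME, subunit e of the membrane part, had the highest, with 466, 645 and 523 in ρ+ and 995, 1034 and 887 in ρ0 cells (0.85 ± 0.20, limma adjusted p = 0.344), and was at -0.28 in A549.

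None of the 9 measured catalytic core subunits passed in either line, in the mean change or in the difference by limma's adjusted p. Of all probe sets 10.6% passed in A549, 0% in 143BTK-, 3.7% in the mean change and 1.86% in the difference, so that 0 of 9 is near the background. At an unadjusted p under 0.05 there were 2 in A549 (CYC1 and ATP5F1B, against 27% of all probe sets), 0 in 143BTK- (8.53% of all), 2 in the mean change (the same genes, 20.7% of all) and 1 in the difference (ATP5F1B, 17.4% of all). In complex I, NDUFV1, which binds NADH and FMN, had changes of 0.15 (95% interval -0.30 to 0.61) in A549 and 0.22 (-0.26 to 0.70) in 143BTK-. The iron-sulphur subunits NDUFV2, NDUFS1 and NDUFS7 had changes of -0.01, 0.30 and 0.32 in A549 and of -0.13, -0.20 and -0.02 in 143BTK-, and NDUFS3, which lies beside the ubiquinone module, was at -0.19 and -0.25. SDHA, the flavoprotein of complex II, was at -0.06 (95% interval -0.49 to 0.37) and 0.31 (-0.26 to 0.89). In the F1 head ATP5F1A (alpha) was at 0.03 and 0.14, while ATP5F1B (beta) read 3330, 3023 and 3637 in ρ+ and 2489, 2075 and 2572 in ρ0 cells of A549. The ATP5F1B groups did not overlap in A549 and the change missed the threshold (-0.49 ± 0.14, limma adjusted p = 0.0533); in 143BTK- it was -0.02. Changes within these intervals could not be told from none with 3 arrays a group. The Rieske protein UQCRFS1 of complex III is a further core subunit, left out here by the rule. The authors report its transcript as lower in the ρ0 cells of both lines on these arrays.

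CYC1, the cytochrome c1 of complex III, had lower signals in the ρ0 cells of both lines. They were 959, 846 and 1132 in ρ+ and 767, 538 and 694 in ρ0 cells of A549, and 1134, 1088 and 1170 in ρ+ and 976, 845 and 913 in ρ0 cells of 143BTK-. The ρ0 arrays were below all ρ+ arrays in both lines, which held for 1.24% of all probe sets and for no other member. The share of members, 1 of 92 (1.09%), is thus near that of all probe sets. The mean change was -0.44 ± 0.12 (limma adjusted p = 0.0652), with -0.56 in A549 and -0.31 in 143BTK- (limma adjusted p = 0.0874 and 0.652). The exact permutation p of 0.005, the smallest possible, follows from the lack of overlap in both lines and adds nothing to it. By their brightest probe sets, the other subunits of complex III among the members had changes between -0.33 and 0.17 in A549. In 143BTK-, UQCR10, a small membrane subunit, was lowest (-0.63, limma adjusted p = 0.545) and UQCRB highest (0.43, limma adjusted p = 0.703). In complex II the anchor SDHD had 130, 164 and 182 in ρ+ and 259, 206 and 221 in ρ0 cells of A549 (0.53, limma adjusted p = 0.14) and -0.38 in 143BTK-, and SDHC had changes of -0.36 and 0.12 with its brightest probe set.

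**Figure D4:**
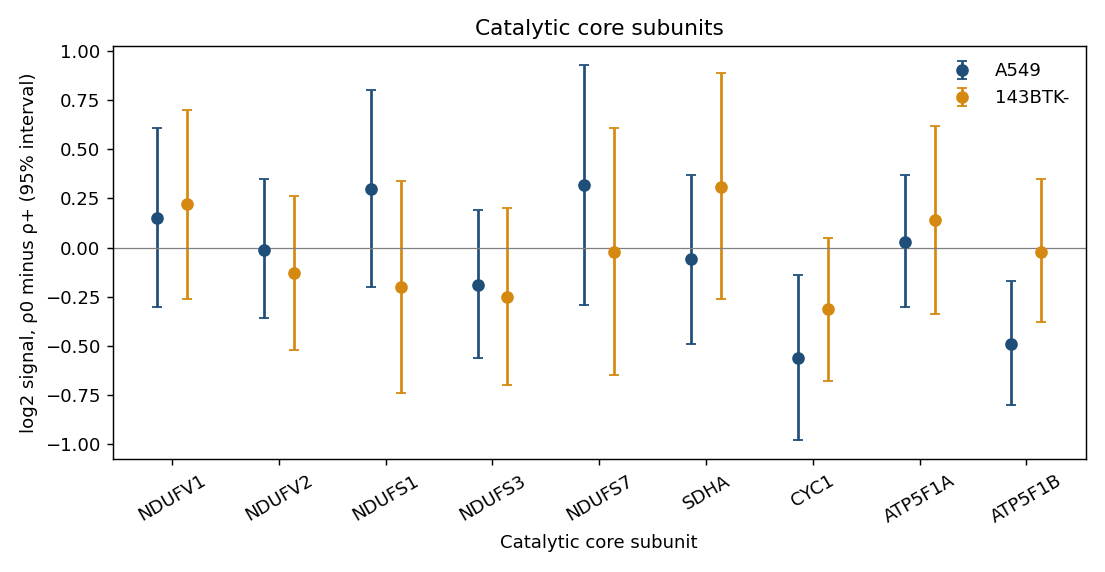
Change of the 9 measured catalytic core subunits, as log2 signal of ρ0 minus ρ+ cells with 95% intervals from limma, blue for A549 and orange for 143BTK-. Most intervals include 0; those of CYC1 (-0.56) and ATP5F1B (-0.49) in A549 do not, and neither passed after adjustment.

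As groups, the 9 core genes had a median change of -0.01 and the 57 accessory genes one of -0.03 in A549, a difference of 0.02, which was -0.25 after centring on the chromosome. In 143BTK- the medians were -0.02 and 0.13, a difference of -0.15, which was -0.40 without the ρ+ C and ρ0 B arrays. All 15 called probe sets in A549 were accessory. The share called, 15 of 83 accessory against 0 of 9 core probe sets, was not tested.

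In the mean change of both lines, 4 members were higher (1.98% of all probe sets were) and 2 lower (1.72% of all), and these are ATP5MC2, ATP5F1D, ATP5MG, COX7A2L, NDUFA8 and NDUFAB1. Each of the 6 lost its call when some single array was left out, with highest limma adjusted p values between 0.0657 for NDUFA8 and 0.125 for COX7A2L. Without the 143BTK- ρ+ C and ρ0 B arrays ATP5F1D alone of the 6 did not pass. The change differed between the lines for 4 members. It was more positive in A549 for 1 (0.994% of all probe sets were) and more negative for 3 (0.869% of all). NDUFC1, a membrane arm subunit of complex I, read 661, 688 and 553 in ρ+ and 845, 854 and 843 in ρ0 cells of A549, and 736, 878 and 881 in ρ+ and 368, 455 and 494 in ρ0 cells of 143BTK-. The groups were apart in both lines with opposite directions, and the difference was 1.35 ± 0.24 (limma adjusted p = 0.0149), with changes of 0.42 and -0.93 that did not pass on their own (limma adjusted p = 0.117 and 0.298).

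NDUFS6 and COX5A were lower in A549 and had positive changes in 143BTK-, 0.59 and 0.28, that did not pass there (limma adjusted p = 0.541 and 0.675). NDUFS6 read 752, 861 and 768 in ρ+ and 466, 594 and 490 in ρ0 cells of A549, and 807, 1216 and 750 in ρ+ and 1450, 1257 and 1381 in ρ0 cells of 143BTK- (difference -1.22 ± 0.27, limma adjusted p = 0.0367). COX5A read 1044, 1221 and 1255 in ρ+ and 1407, 1521 and 1348 in ρ0 cells of 143BTK- (difference -1.03 ± 0.20, limma adjusted p = 0.0194). COX4I1 with 202698_x_at differed by -0.84 ± 0.19 (limma adjusted p = 0.0367), and its 143BTK- change was 0.21 (limma adjusted p = 0.738), with the ρ0 A array and the highest ρ+ array both at 2119. Over complex IV as a whole the median difference was -0.37 over 12 genes, against 0.01 over all probe sets. Complex II had the same median over 3 genes, and complexes I, III and V were at -0.06, -0.24 and -0.08. Without the A549 ρ0 A array 0 of the 4 differences passed, with adjusted p values of 0.0506 to 0.105, and without the 143BTK- ρ+ C and ρ0 B arrays NDUFC1 and COX5A passed.

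**Figure D5:**
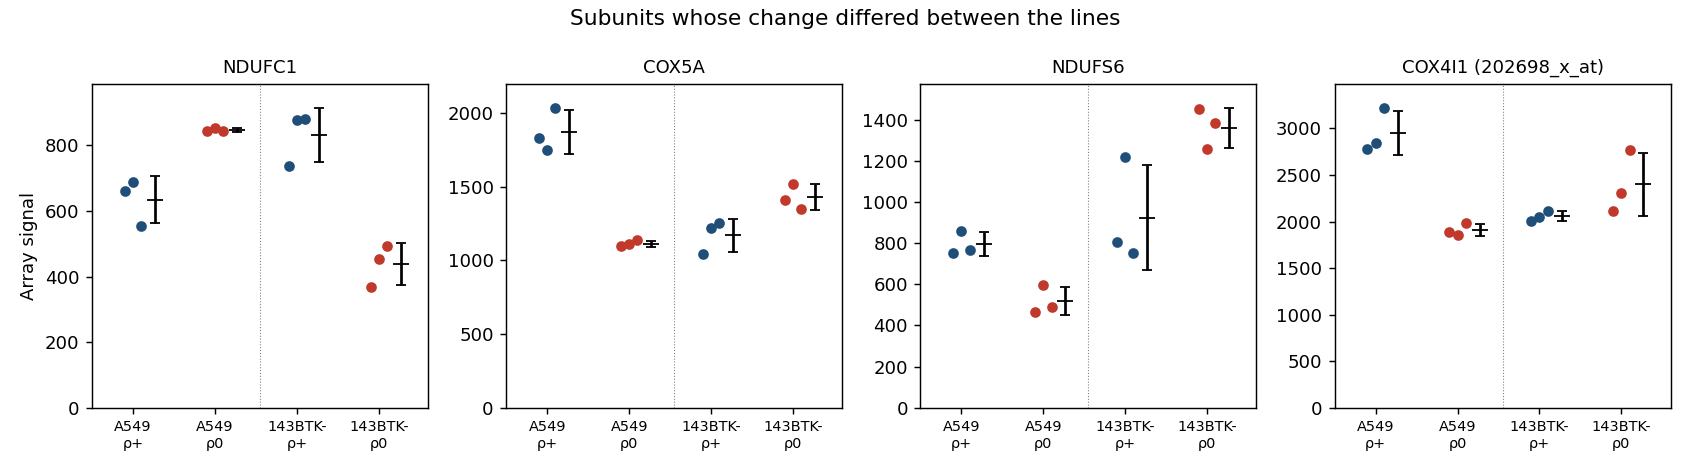
Array signals (linear scale from 0) of the 4 probe sets whose change differed between the lines by limma's test, with points for arrays A, B and C, blue for ρ+ and red for ρ0 cells, and black marks for the mean and SD. NDUFC1 is higher in A549 ρ0 and lower in 143BTK- ρ0 cells, and NDUFS6, COX5A and COX4I1 are lower in A549 ρ0 cells and at or above the ρ+ level in 143BTK- ρ0 cells.

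Chromosomes differed in their median change, and this moved with some of the members. In A549 the median over all probe sets of chromosome 16, which carries NDUFAB1 and COX4I1, was -0.32, that of chromosome 9, which carries NDUFA8, -0.31, and that of chromosome 8, which carries CYC1 and UQCRB, -0.26, while chromosome 11, which carries ATP5MG, was at 0.19. With the median of the chromosome taken off each log2 signal, changes in A549 were -1.07 for NDUFA8 (limma adjusted p = 0.015), -0.64 for NDUFAB1 (0.0413), -0.94 for COX6B1 on chromosome 19 (0.00698) and 0.81 for ATP5MC2 on chromosome 12 (0.0289), which all passed. COX4I1 was then at -0.34 (0.143), ATP5MG with 207573_x_at at 0.55 (0.0639) and CYC1 at -0.31 (0.317). Of the 15 A549 calls 7 passed after centring, and of the 6 in the mean change 0 passed, with adjusted p values of 0.0514 to 0.109. The part of these chromosome shifts in the members' changes was not tested.

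Of the 103 genes fixed as assembly factors, electron carriers, nucleotide and phosphate carriers and regulators of the same pathway, 65 were kept in A549, where 1 was higher and 5 lower by the brightest probe set (5.53% and 5.07% of all probe sets were). In 143BTK- 0 of 67 passed limma's adjusted threshold (0% of all), and 4 were lower and 0 higher at an unadjusted p under 0.05 (4.67% and 3.87% of all). The gene that rose was TTC19, a complex III assembly factor (294 ± 152 to 617 ± 62.1, mean ± SD; 1.18, limma adjusted p = 0.0344), and its difference between the lines was 1.93 (limma adjusted p = 0.0352). Those that fell in A549 were CMC2, a complex IV assembly factor (580 ± 66.9 to 219 ± 26.5; -1.41, limma adjusted p = 0.00209), COQ9 of ubiquinone synthesis (346 ± 6.11 to 163 ± 16.8; -1.09, 0.00613), ETFB of the electron transfer flavoprotein (-0.81, 0.0133), cytochrome c itself, CYCS (-0.74, 0.0463), and TMEM70, a factor for the c ring of ATP synthase (-0.72, 0.0399). CMC2 and COQ9 also passed in the mean change (-0.78 and -0.69, limma adjusted p = 0.0193 and 0.0345), and both lie on chromosome 16. In 143BTK- on its own they were at -0.14 and -0.28 and did not pass (limma adjusted p = 0.91 and 0.805). SDHAF1, a complex II assembly factor, passed with its dimmer probe set alone (-0.81, limma adjusted p = 0.035). The 10 complex I assembly factors kept and the 13 regulators of nuclear respiratory genes kept in A549 had 0 calls there, with medians of -0.07 and 0.05. At an unadjusted p under 0.05 these were 1 and 2 genes, where 27% of all probe sets passed. The filter on the mean signal left out PPARGC1A, the coactivator PGC-1α on the list of regulators, which was named after its values were seen. It read 29.8 to 40.7 in ρ+ and 1.2 to 6.9 in ρ0 cells of A549, so the groups did not overlap, and it is in neither the count nor the median. Its ρ0 signals there lay under 17.9, the lowest mean signal kept in A549. Of all kept probe sets 15.9% were lower without overlap in A549. In 143BTK- it read 1.8 to 6.9 in ρ+ and 6.5 to 11.7 in ρ0 cells, and its change was not tested in either line.

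The promoters of the subunit genes share short motifs that the rule did not use. RefSeq start sites of GRCh38.p14 were listed for 58 of the 67 genes, and windows from 250 bases before to 50 after the start were searched on both strands for GCGCNTGCG (most of the palindrome-like site of NRF1), CCGGAAG (the core of ETS family sites such as those of GABPA) and AAGATGGC (YY1). They were found in 36.2%, 31% and 19% of the subunit genes, against 12.5%, 16.5% and 4.66% of 15843 protein-coding genes, and at least 1 of them in 65.5% against 28.9%. The NRF1 share depended on the letters asked for: with a further C at the end, the form searched first, it was 22.4% against 9.67%, and at least 1 motif was found in 58.6% against 26.9%. Overlapping matches of 1 motif were counted once, and of the 67 matches in the members' windows 0 overlapped a match of another motif. A match was present for 9 of the 12 genes with an A549 call that had a window and for 29 of the 46 without a call. The following windows of 30 bases lie upstream of the start and are written on the strand of the gene, with the match, on either strand, in capitals. They show COX5B and ATP5PO, which had a called probe set, beside SDHA, whose promoter repeats the NRF1 motif, and ATP5F1C, the gamma subunit of the central shaft, neither of which was called.
COX5B (CCGGAAG, chr2:97646014-97646043, + strand): gaagcccgcccCCGGAAGtccctcctgtct
ATP5PO (GCGCNTGCG, chr21:33915809-33915838, - strand): acgccaacgcGCGCGTGCGcccttgcgcgt
SDHA (GCGCNTGCG on the other strand, chr5:218145-218174, + strand): gtccgctttgCGCAGGCGCggcgcccccac
ATP5F1C (GCGCNTGCG, chr10:7788145-7788174, + strand): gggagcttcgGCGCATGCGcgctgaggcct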

How the data were processed

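RNA of 12 samples was measured on HG-U133A arrays. The deposited values are intensity values on a linear scale: the authors computed Microarray Suite 5.0 (MAS5) signals and applied quantile normalization to the 6 arrays of 1 line at a time. They were used as deposited, and 0 columns were left out. The authors left out probe sets that were Absent throughout a line and used a power law global error model, which was not refitted here. In its place the upper 60% of probe sets by mean log2 signal entered the test of a line (13369 in each line and 11966 in both, with a lowest mean signal of 17.9 in A549 and 15 in 143BTK-). Log2 signals of ρ0 and ρ+ cells were compared in limma 3.58.1 under R 4.3.3 (lmFit, then eBayes with an intensity trend, two-sided), with Benjamini-Hochberg adjustment over everything that entered and a threshold of 0.05. A model over the 12 arrays gave the mean of both lines and the A549 change minus the 143BTK- change. Exact permutation of arrays within lines had 400 arrangements, with a smallest p of 0.005 over both lines and of 0.1 in 1 line.

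Groups, line by mtDNA state, follow the sample labels. The platform table gave 1 gene for 19071 probe sets, several for 1043 and none for 2169, and 19059 of the first were found in RefSeq (GRCh38.p14). The brightest probe set that entered stands for a gene in medians. The genes named are members that passed, all core subunits, the highest and the lowest gene of a complex, isoforms, and genes of the pathway lists that passed. COX7B, PPARGC1A and the genes of the printed promoter windows were picked after their values were seen. The members and lists were chosen with earlier results of these data known. Alternatives covered the scaling, a constant of 16 or 64 added to the signals, the filter (none, or mean signals from 100 up), the intensity trend, a replicate block, the choice of probe sets, a wider core, chromosome medians and leaving out arrays. The number of arrays limits the precision. The fit was tested on simulated data. Python 3.11.15 with pandas 2.3.3 and matplotlib 3.10.9 made the summaries and plots.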

Additional observations from a re-analysis of the deposited data

Results flagged for a closer look

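The change from ρ+ to ρ0 cells differed between the lines, by limma's test of the difference, for 4 probe sets of subunits, and each is given as the A549 change minus the 143BTK- change on the log2 scale. NDUFC1 had a difference of 1.35 (0.42 in A549 and -0.93 in 143BTK-), NDUFS6 one of -1.22 (-0.62 and 0.59), COX5A one of -1.03 (-0.75 and 0.28) and COX4I1 with 202698_x_at one of -0.84 (-0.63 and 0.21). After centring on the chromosome the differences were 1.03, -1.28, -0.80 and -0.51, and NDUFS6 alone passed (limma adjusted p = 0.0393). The groups of 3 arrays are too small for a test of outlying arrays.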

How the results depend on the processing

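In 143BTK- the count of called members was 0 under every alternative run. In A549 it was 15, and 8 after centring on the chromosome, 3 without the intensity trend, 13 with the replicate block and 2 to 19 when 1 array was left out. In the mean change it was 6, and 0, 1 and 3 with centring, no trend and the replicate block, and 1 to 6 with 1 array left out. In the difference between the lines it was 4, and 2 with centring, 7 with a mean signal of at least 100, 1 without the trend, 2 with the replicate block, 0 to 6 with 1 array left out and 2 without the 143BTK- ρ+ C and ρ0 B arrays, an alternative chosen after seeing the data. Whether replicate letters pair the samples is not given by the labels, and the main test used no pairing. Deviations of same-letter arrays correlated at 0.106, 0.053 and 0.0878 in A549 and at 0.391, -0.114 and -0.0164 in 143BTK-. Pairs of different letters ran from -0.106 to 0.0215 in A549, below each same-letter pair, and from -0.501 to 0.409 in 143BTK-. NDUFA8 and COX6B1 in A549 passed under all 16 alternatives, the other 13 A549 calls, 6 calls of the mean change and 4 differences were each lost under some, and 0 calls changed sign.

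Core minus accessory medians moved from 0.02 to -0.25 in A549 with centring and from -0.15 to -0.40 in 143BTK- without the 143BTK- ρ+ C and ρ0 B arrays. The complex III median in 143BTK- was -0.03, -0.21 with centring and -0.18 to 0.27 with 1 array left out. With 1 array left out the complex I median ran from -0.01 to 0.12 in A549 and from -0.06 to 0.23 in 143BTK-, and the complex V median from -0.13 to 0.05 and from -0.02 to 0.19. Pathway genes called in the mean change were 2, and 1 without the trend. The cause of these shifts was not tested. NDUFA4 could not be moved to complex I, since no probe set of its own was at hand.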
